A study of Mus musculus with 12 samples.

Results

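The comparison here is the effect of Tiparp loss averaged over 2 treatments: the knockout minus wild-type difference under corn oil and the same difference under TCDD, weighted equally. All 12 arrays of the series entered it, 6 from knockout and 6 from wild-type livers. The wild-type mice were Tiparp +/+ and the knockout mice Tiparp -/-, all 8 weeks old and all of a mixed C57BL/6;129Sv background, and each liver sample was hybridised to its own Affymetrix Mouse Exon array. They received either corn oil, the vehicle, or TCDD (2,3,7,8-tetrachlorodibenzo-p-dioxin, the most studied dioxin) at 30 µg per kg, injected into the peritoneum, and each of the 4 groups has 3 arrays that the labels call biological replicates. The labels do not state the allele behind the knockout, littermate status, sex or the time from dose to collection. The question is which liver transcripts differ with genotype whatever the treatment.

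TCDD acts through the aryl hydrocarbon receptor (AhR), a ligand-activated transcription factor that induces Cyp1a1 and other detoxification genes in hepatocytes. Tiparp, itself an AhR target, encodes a mono-ADP-ribosyltransferase of the PARP family that represses AhR in a negative feedback loop. Its loss is known mainly for exaggerated responses to AhR ligands.

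Tiparp expression separated the genotypes on every array. Wild-type arrays read 7.42, 7.41 and 7.33 on the log2 scale under corn oil and 9.91, 10.82 and 10.84 under TCDD. Knockout arrays read 7.10, 6.20 and 5.58 under corn oil and 6.82, 6.70 and 6.91 under TCDD. All 3 knockout arrays lay below all 3 wild-type arrays under both treatments, by little under corn oil and by much under TCDD, where the wild-type alone stood high. The average difference was -2.40 ± 0.24 (SE of the log2 difference, 6 against 6 arrays; limma adjusted p = 0.00709), a 5.29-fold lower level, made of -1.09 under corn oil and -3.71 under TCDD. Whether the probe set lies inside the deleted part of the gene was not tested. As labelled, the tissue expressed hepatocyte markers: Alb, Ttr, Tat and Hnf4a had a mean log2 level of 13.28 to 13.47 on every array and a median genotype difference of 0.01.

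The arrays had medians of 6.91 to 7.00, and arrays of 1 group correlated with Pearson's r of 0.979 to 0.989 across probe sets. Knockout corn oil replicates 1, 2 and 3 stood apart on the first principal component (23.5% of the variance), with scores of 45.8, 36.7 and 17.2 against -30.5 to 7.99 for the other arrays. An index of clock genes, which differs with the time of day, ran from -1.79 to -0.895 in wild-type corn oil arrays and from -0.588 to 2.3 in knockout corn oil arrays, while the TCDD groups overlapped. The arrays that stand apart belong to 1 of the 4 groups, so their position and the genotype under corn oil cannot be told apart. Several results below are also given without knockout corn oil replicates 1 and 2, which leaves replicate 3 alone in that group.

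Loss of Tiparp, averaged over treatments, was called (limma, Benjamini-Hochberg adjusted p below 0.05 over all probe sets) at 96 of 23332 probe sets, which is 0.411%. Of these, 52 were higher in the knockout (0.223%) and 44 lower (0.189%). With every array centred on its own median 174 were called, 65 higher and 109 lower, so the share of higher calls went from 54.2% to 37.4%. Probe sets with an unadjusted p under 0.05 numbered 3959, of which 1918 were higher and 2041 lower. The called probe sets include 73 of 14860 genes with a symbol of their own (0.491%), 39 higher and 34 lower. Effects were moderate: among higher probe sets the median average difference was 0.64 and 8 reached 2-fold, and among lower ones it was -0.55 and 6 did.

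The called differences pointed the same way in both treatments for 92 of 96 probe sets. A stricter condition asked that all 3 knockout arrays lie on the same side of all 3 wild-type arrays under corn oil and again under TCDD. It was met by 69 of the called probe sets (0.296% of all tested), 31 higher and 38 lower. Among all probe sets, called or not, 667 met it. These called probe sets were chosen on the same arrays, so the shares describe them and give no further support.

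The estimated difference was often larger in 1 treatment than in the other. Among higher probe sets, 33 of 52 had the larger difference under TCDD (median 0.74, against 0.46 under corn oil). Among lower probe sets, 35 of 44 had the larger difference under corn oil (median -0.75, against -0.41 under TCDD). The corn oil difference alone was called at 457 probe sets (1.96%), the TCDD difference at 56 (0.24%) and the interaction, which is the difference between them, at 37 (0.159%). Among the 96 average calls the interaction was called at 12. For the others a different size in the 2 treatments is not shown. Of the 96 average calls, 51 were also called under corn oil only, 27 under TCDD only, 2 under both (Mme and Mcam) and 16 under neither. These comparisons use the same arrays, so their calls are not independent. The 2 called under both, and every other gene given below without being among the 22 of the naming rule, were chosen after their values were seen.

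**Figure D1:**
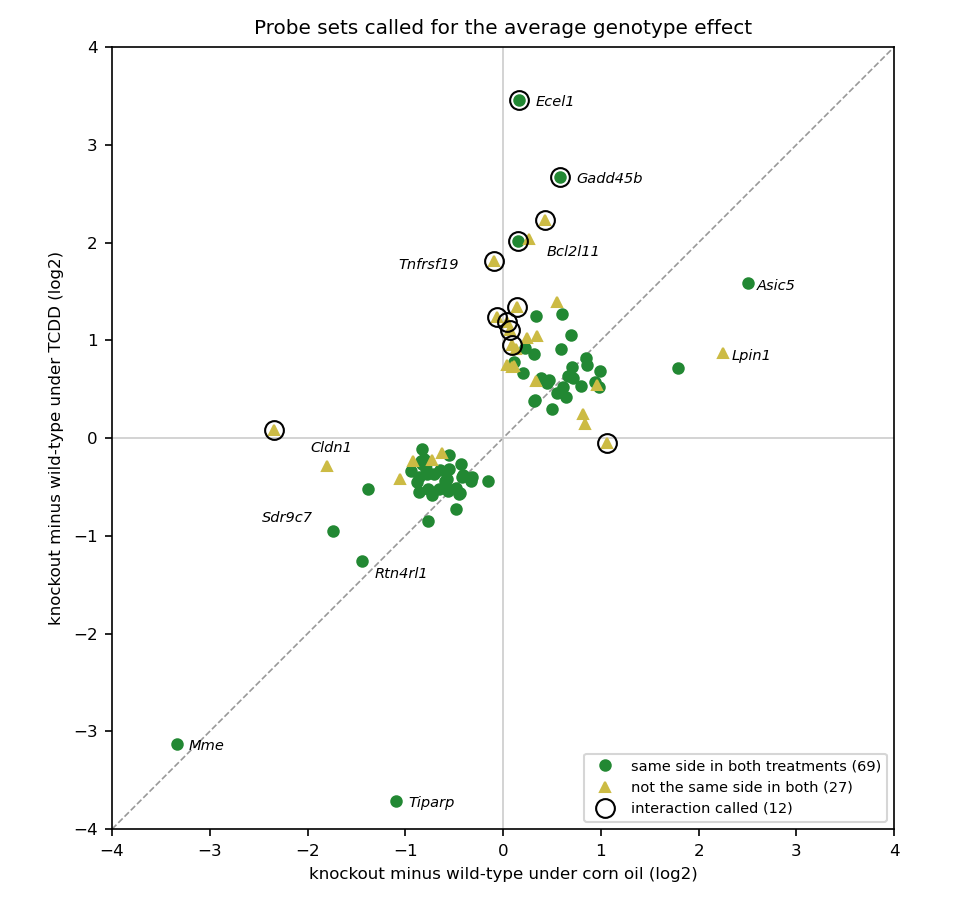
Each of the 96 probe sets called for the average effect is plotted by its knockout minus wild-type log2 difference under corn oil (horizontal axis) and under TCDD (vertical axis). The dashed line marks equal differences, and 92 of the 96 points lie in the 2 quadrants where both differences have the same sign. Open circles mark the 12 points at which the interaction was also called.

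Mme had the largest difference among called probe sets. It encodes neprilysin, a membrane metalloprotease that cleaves small peptides. Wild-type arrays read 9.58, 8.68 and 7.65 under corn oil and 8.70, 7.80 and 8.43 under TCDD, against 5.14, 5.51 and 5.24 and then 5.10, 5.38 and 5.07 in the knockout. No knockout array came near any wild-type array, and treatment made little difference to the gap (-3.34 under corn oil and -3.13 under TCDD). The average difference was -3.23 ± 0.28 (SE; limma adjusted p = 0.00362), a 9.4-fold lower level. Ecel1, a relative of Mme in the neprilysin family, moved the other way and is described among the genes with a larger difference under TCDD.

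Asic5 had the largest rise among called probe sets. It encodes a cation channel of the acid-sensing family that is sensitive to bile acids. Wild-type arrays read 6.39, 6.83 and 6.30 under corn oil and 7.32, 7.43 and 8.58 under TCDD. Knockout arrays read 8.80, 9.34 and 8.91, and then 8.89, 9.68 and 9.51. The groups did not overlap under either treatment, although wild-type TCDD replicate 3 came close to the knockout. The average difference was 2.05 ± 0.24 (SE; limma adjusted p = 0.0115), a 4.13-fold higher level, with 2.51 under corn oil and 1.58 under TCDD.

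Aadac, which encodes arylacetamide deacetylase, a lipid and drug esterase of the hepatocyte endoplasmic reticulum, was abundant and lower in the knockout. It read 12.58, 12.58 and 12.39 in wild-type corn oil arrays and 12.40, 12.41 and 12.40 in wild-type TCDD arrays. The knockout read 11.66, 11.84 and 11.87 under corn oil and 12.04, 11.71 and 11.72 under TCDD. Both treatments gave separate groups and nearly the same gap, for an average of -0.65 ± 0.07 (SE; limma adjusted p = 0.0115).

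Mme, Aadac and Asic5 all lie near Tiparp on chromosome 3. Among the 200 measured genes closest to it in gene order, 100 on either side, these were the 3 that were called (1.5%, against 0.491% of all genes). Mme was the 6th measured gene on one side and Aadac the 13th on the same side, while Asic5 was the 38th on the other. Within 20 genes on either side 2 of 40 were called. Sucnr1, the succinate receptor gene next to Aadac, did not pass the test (-1.58; limma adjusted p = 0.0657), but its 6 knockout arrays, at 4.89 to 6.33, lay below all 6 wild-type arrays, at 6.63 to 8.38. Of the 200 genes, 9 met the condition on sides, called or not (4.5%, against 3.64% of all genes), and their median difference was 0.02. The remaining called genes lay across the genome, and 18 chromosomes held at least 1. On a mixed C57BL/6;129Sv background, the loss of Tiparp and the strain origin of the chromosome segment around it cannot be told apart in these groups.

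**Figure D2:**
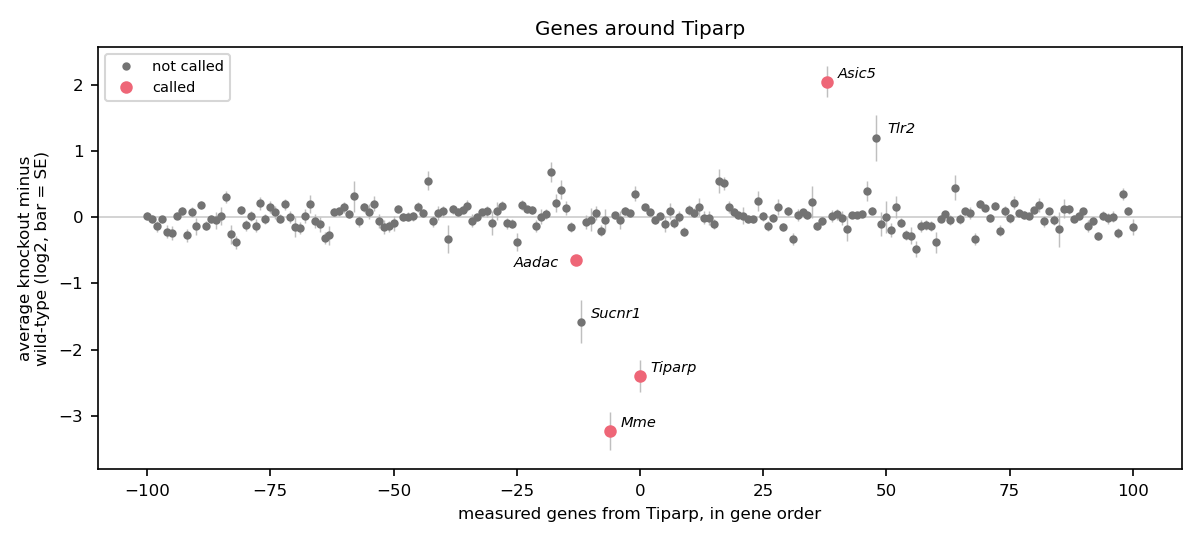
The average knockout minus wild-type log2 difference (vertical axis, bars show the SE) is plotted for Tiparp and the 200 measured genes nearest to it in gene order (horizontal axis, number of genes away). Mme, Aadac and Asic5 are the 3 called neighbours, and the median of the 200 is 0.02.

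The other genes that fell with arrays apart under both treatments were smaller in effect. Rtn4rl1, a Nogo receptor relative, read 9.22, 8.51 and 9.05 in wild-type and 6.96, 7.49 and 7.99 in knockout livers under corn oil. Under TCDD it read 9.01, 8.32 and 8.16 in wild-type and 7.10, 7.36 and 7.26 in knockout livers. The groups were apart under both, with an average of -1.35 ± 0.21 (SE; limma adjusted p = 0.0254). Sdr9c7, a short-chain dehydrogenase, read 11.17, 11.30 and 11.11 against 8.77, 9.23 and 10.36 in the knockout under corn oil, and 11.16, 10.82 and 10.64 against 10.02, 9.72 and 10.04 under TCDD. Its average was -1.34 ± 0.23 (SE; limma adjusted p = 0.0438), and knockout corn oil replicate 3 stood nearer the wild-type than the other two. Cdc14b, a dual-specificity phosphatase, read 9.52, 9.61 and 8.96 against 7.69, 7.84 and 8.43 under corn oil. Under TCDD it read 9.33, 9.01 and 9.15 against 8.70, 8.58 and 8.64, and the average was -0.95 ± 0.15 (SE; limma adjusted p = 0.0269). Of the 12 fits that leave out 1 array, Rtn4rl1 was called in 6, Cdc14b in 3 and Sdr9c7 in 2.

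Smaller falls, between -0.71 and -0.63 with adjusted p from 0.0207 to 0.0354, were found at 4 more named genes. They are Hykk, the hydroxylysine kinase that acts in lysine breakdown, Rassf8, a Ras-association domain protein, Kmt5a, the enzyme that adds a single methyl group to lysine 20 of histone H4, and Ttll1, a tubulin polyglutamylase. For each, all knockout arrays lay below all wild-type arrays under both treatments, and the corn oil difference was the larger. They were called in 2 to 8 of the 12 leave-one-out fits. Rassf8, for example, read 9.02 to 9.32 in wild-type and 8.01 to 8.57 in knockout livers under corn oil, and 8.87 to 8.97 against 8.41 to 8.49 under TCDD. Outside the naming rule, Pip4k2b, a phosphatidylinositol phosphate kinase gene, fell with arrays apart under both treatments (-0.50 ± 0.06, SE; limma adjusted p = 0.0121).

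**Figure D3:**
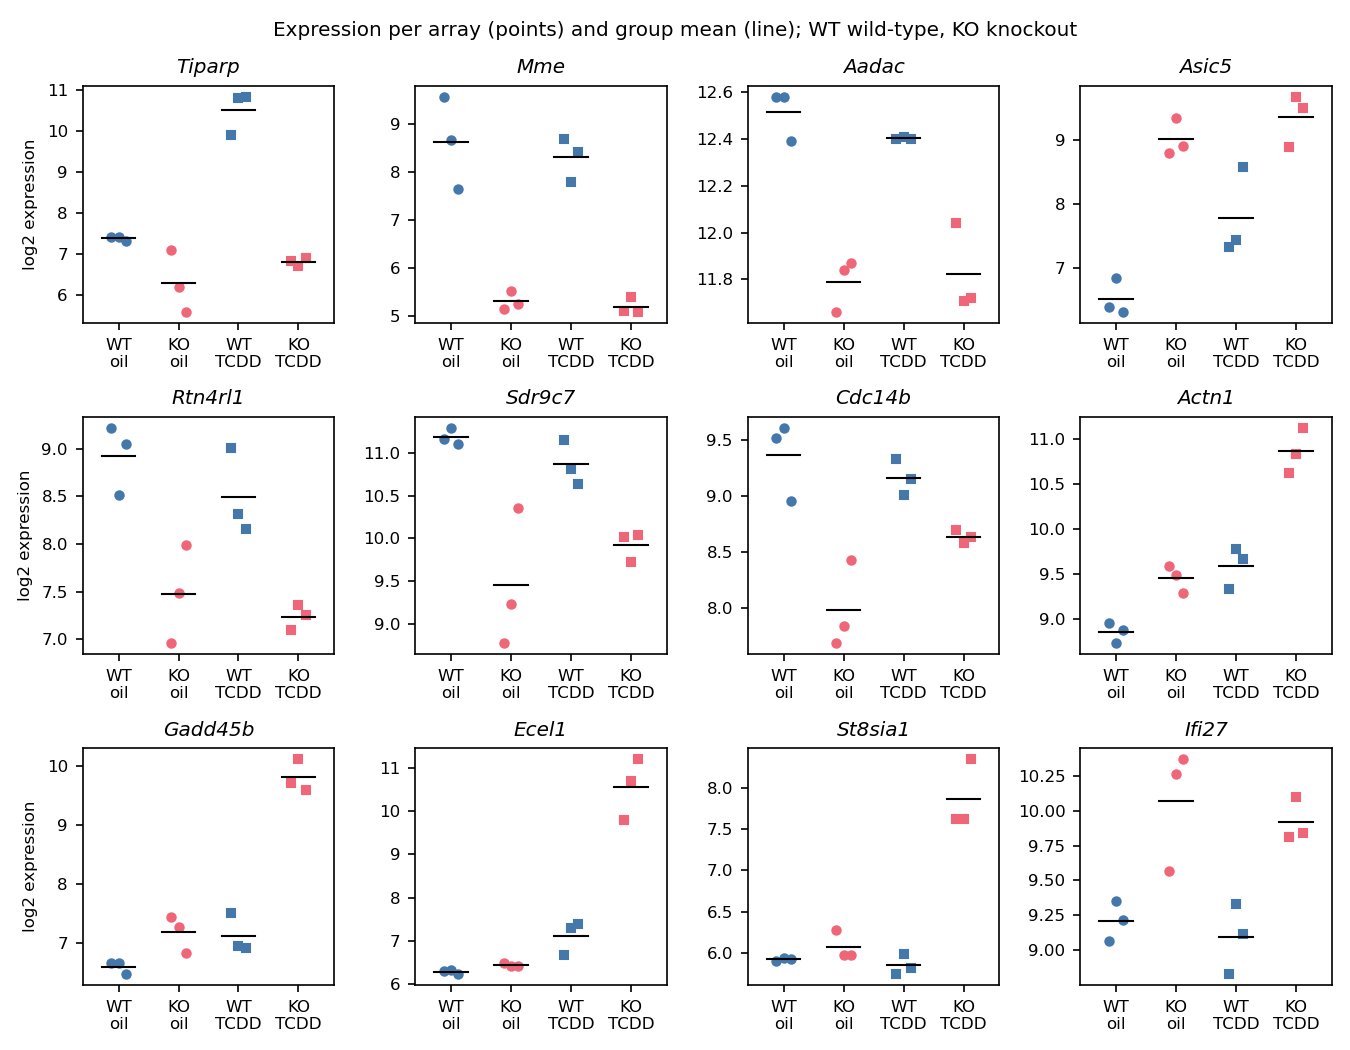
Log2 expression on each array (points, 3 per group) and group means (lines) is plotted for selected genes with WT for wild-type and KO for knockout. For Mme the knockout points lie at 5.07 to 5.51 under both treatments and the wild-type points at 7.65 to 9.58, whereas the knockout points of Ecel1 and Gadd45b are far above the wild-type under TCDD alone.

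Other genes were higher with arrays apart under both treatments, and the stability of their calls differed. Of the 12 fits that leave out 1 array, Ifi27 and Mlkl were called in 2 and Plac8 in 3. Actn1, Mcam and Dpt, described below, were called in all 12. Ifi27, an interferon-inducible gene, read 9.07, 9.35 and 9.22 in wild-type and 9.57, 10.26 and 10.37 in knockout livers under corn oil. Under TCDD it read 8.83, 9.33 and 9.12 against 9.81, 10.10 and 9.84. The groups were apart under both, with an average of 0.84 ± 0.14 (SE; limma adjusted p = 0.0444). Mlkl, the pseudokinase that executes necroptosis, read 7.18, 7.55 and 7.52 against 8.35, 8.04 and 7.93 under corn oil and 6.98, 7.28 and 7.47 against 7.82, 8.52 and 8.54 under TCDD. It averaged 0.87 ± 0.15 (SE; limma adjusted p = 0.0441). Plac8, a cysteine-rich protein abundant in myeloid cells, was higher by 0.76 ± 0.13 (SE; limma adjusted p = 0.0468), at 7.45 to 7.93 in wild-type and 8.32 to 8.68 in knockout livers under corn oil and 7.19 to 7.76 against 7.92 to 8.33 under TCDD. With the clock index as a covariate Mlkl (limma adjusted p = 0.066) and Plac8 (0.0685) lost the call, and Ifi27 (0.0373) kept it.

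Mcam, a cell adhesion molecule of endothelium and pericytes, was called under each treatment as well as on average. It read 7.91, 7.82 and 7.88 in wild-type and 8.48, 8.29 and 8.20 in knockout livers under corn oil, and 7.99, 8.06 and 8.09 against 8.60, 8.60 and 8.64 under TCDD. No arrays overlapped, and the average was 0.51 ± 0.06 (SE; limma adjusted p = 0.0115). Dpt, which encodes dermatopontin, an extracellular matrix protein of fibroblasts, differed by the same 0.51 ± 0.06 (SE; limma adjusted p = 0.0115). Dab2, an endocytic adaptor, and Dusp4, a MAP kinase phosphatase, rose by 0.50 and 0.53.

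Most markers of macrophages and stellate cells read higher beside these genes without passing the test. All 8 macrophage and Kupffer cell markers had a difference above 0, with a median of 0.25 and 3 at an unadjusted p under 0.05 (Marco 0.62, Cd5l 0.44 and Cd68 0.39), and 0 called. Their mean level was 8.25 to 9.27 on wild-type and 8.94 to 9.48 on knockout arrays, so the ranges overlap. Between arrays of 1 group the median level of these markers had an SD of 0.296. Over all genes 53.8% had a difference above 0, and 8.93% were higher at an unadjusted p under 0.05. Of 9 stellate cell markers 7 were above 0, with a median of 0.16 (0.12 under corn oil and 0.34 under TCDD) and a lowest value of -0.26. The collagen genes Col1a1, Col1a2 and Col3a1 differed by 0.23 to 0.28. Lrat, another marker on the list, differed by -0.18, from -0.75 under corn oil and 0.38 under TCDD. The 9 endothelial markers had a median of 0.05 and ran from -0.19 to 0.89. At an unadjusted p under 0.05, 2 were higher and 0 lower, and 0 were called. Their part in the differences above was not tested, and in whole liver RNA more cells of a type and more RNA per cell cannot be told apart.

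A second set of higher genes owed its average mainly to TCDD. Gadd45b, a stress-inducible gene of DNA demethylation and MAP kinase signalling, read 6.67, 6.67 and 6.48 in wild-type and 7.45, 7.28 and 6.84 in knockout livers under corn oil. Under TCDD it read 7.51, 6.96 and 6.93 against 9.71, 10.12 and 9.59. The groups were apart in both treatments but the gap was small in the first (0.58) and large in the second (2.67). Its average was 1.63 ± 0.14 (SE; limma adjusted p = 0.00362). Ecel1, the neprilysin relative, read 6.29, 6.31 and 6.22 against 6.49, 6.41 and 6.40 under corn oil, and 6.66, 7.29 and 7.39 against 9.80, 10.70 and 11.22 under TCDD. The corn oil difference was 0.16, so the average of 1.81 ± 0.21 (SE; limma adjusted p = 0.0115) came almost wholly from TCDD.

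St8sia1, the sialyltransferase that makes ganglioside GD3, was represented by 2 probe sets, both called. The more abundant read 5.90, 5.94 and 5.92 against 6.28, 5.97 and 5.97 under corn oil, and 5.74, 5.99 and 5.81 against 7.62, 7.62 and 8.35 under TCDD. The corn oil groups did not overlap but lay close together, and the average was 1.08 ± 0.13 (SE; limma adjusted p = 0.0115). On the other probe set the corn oil groups overlapped, at 4.44, 5.07 and 4.51 against 5.06, 5.02 and 5.22, and the average was 1.33 ± 0.12 (SE; limma adjusted p = 0.00362). Pmm1, a phosphomannomutase gene and known AhR target, read 6.76 to 6.85 in wild-type and 6.85 to 6.93 in knockout livers under corn oil, and 7.39 to 7.65 against 8.66 on all 3 knockout arrays under TCDD. Its average of 0.58 ± 0.06 (SE; limma adjusted p = 0.00543) was among the lowest p-values, although its corn oil difference was 0.07. Tnfrsf19, a receptor of the tumour necrosis factor family, had corn oil groups that overlapped (-0.09) and a TCDD difference of 1.81. For Pmm1 and Tnfrsf19 the average stands for a difference under TCDD.

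Between these extremes, Actn1, the actin crosslinker alpha-actinin 1, read 8.96, 8.73 and 8.88 against 9.59, 9.49 and 9.29 under corn oil. Under TCDD it read 9.33, 9.78 and 9.67 against 10.63, 10.84 and 11.13. The groups were apart in both, and the average was 0.94 ± 0.11 (SE; limma adjusted p = 0.0115). Sap30, a subunit of the Sin3 corepressor complex, averaged 0.79 ± 0.11 (SE; limma adjusted p = 0.0179) and the zinc finger gene Hivep2 0.59 ± 0.09 (SE; limma adjusted p = 0.0254), both with the larger gap under TCDD. Other called genes differed mainly under TCDD. Bcl2l11, which encodes the pro-apoptotic protein Bim, averaged 1.15, from 0.27 under corn oil, where the groups overlapped, and 2.04 under TCDD. Maff, a small Maf transcription factor, averaged 0.63, from 0.24 under corn oil, where the groups met at 6.45, and 1.03 under TCDD. Cdkn1b, which encodes the cyclin-dependent kinase inhibitor p27, averaged 0.57, from 0.22 and 0.92. For none of these genes, from Actn1 to Cdkn1b, was the interaction called (limma adjusted p from 0.0645 for Maff to 0.197 for Hivep2).

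The letters GCGTG are the core of the element that AhR binds. The 250 bases before the annotated start are shown for 5 genes with a large TCDD difference. The 5 are a selection and not the genes with the largest TCDD differences. Among named genes not shown, Asic5 held 0 matches and Actn1 1. Tnfrsf19 held 0 and 1 in its 2 windows, and Mme 0, 0 and 1 in its 3. The windows are those of RefSeq for GRCm38.p6, read 5′ to 3′ along each gene, in lower case with GCGTG or its reverse complement CACGC in capitals. Tiparp lies at chr3:65528197-65528446 on the + strand and holds 1 match, Gadd45b at chr10:80929841-80930090 on the + strand 2, St8sia1 at chr6:142964453-142964702 on the - strand 2, Pmm1 at chr15:81960931-81961180 on the - strand 1, and Ecel1 at chr1:87156357-87156606 on the - strand 0.
Tiparp: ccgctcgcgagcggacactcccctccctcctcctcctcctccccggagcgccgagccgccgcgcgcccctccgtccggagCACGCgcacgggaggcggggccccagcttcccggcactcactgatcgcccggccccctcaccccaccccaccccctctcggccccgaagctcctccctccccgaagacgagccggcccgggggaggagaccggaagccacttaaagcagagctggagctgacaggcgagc
Gadd45b: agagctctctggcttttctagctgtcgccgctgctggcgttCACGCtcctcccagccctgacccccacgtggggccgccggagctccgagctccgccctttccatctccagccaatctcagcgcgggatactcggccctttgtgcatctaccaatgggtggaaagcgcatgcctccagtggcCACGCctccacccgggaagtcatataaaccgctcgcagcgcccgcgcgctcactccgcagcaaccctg
St8sia1: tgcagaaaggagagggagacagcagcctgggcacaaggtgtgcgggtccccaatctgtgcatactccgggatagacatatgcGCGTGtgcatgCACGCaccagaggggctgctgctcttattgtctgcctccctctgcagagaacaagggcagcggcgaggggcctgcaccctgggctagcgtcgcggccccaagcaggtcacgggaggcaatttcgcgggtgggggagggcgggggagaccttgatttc
Pmm1: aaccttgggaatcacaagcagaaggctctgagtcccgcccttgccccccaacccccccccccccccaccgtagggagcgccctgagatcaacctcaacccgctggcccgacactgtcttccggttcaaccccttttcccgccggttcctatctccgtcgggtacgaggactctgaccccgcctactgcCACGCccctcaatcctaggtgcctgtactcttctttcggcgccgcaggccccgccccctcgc
Ecel1: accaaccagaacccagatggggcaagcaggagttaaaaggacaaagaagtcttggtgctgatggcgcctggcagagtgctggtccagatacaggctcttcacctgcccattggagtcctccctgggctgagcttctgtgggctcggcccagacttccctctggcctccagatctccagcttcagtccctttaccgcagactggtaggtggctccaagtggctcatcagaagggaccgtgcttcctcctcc
A match was found for 19 of 34 called higher genes with a window (55.9%) and for 15 of 27 called lower genes (55.6%), so the directions were alike. Of all measured genes with a window 5006 of 11869 held one (42.2%). Of all windows of this length 28.2% held one, a share per window and not per gene. A match describes these letters and is no evidence of binding.

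Other genes had the larger gap under corn oil. Lpin1 encodes lipin 1, the phosphatidate phosphatase that makes diacylglycerol for triglyceride and also acts as a coactivator. It read 9.07, 9.65 and 9.68 against 11.59, 11.93 and 11.63 under corn oil and 9.34, 9.51 and 10.61 against 10.53, 10.86 and 10.67 under TCDD. The corn oil groups were far apart, while under TCDD 1 wild-type array lay among the knockout arrays. The average was 1.56 ± 0.21 (SE; limma adjusted p = 0.0179). Cldn1, a tight junction gene, fell with a similar profile: the difference was -1.80 under corn oil and -0.29 under TCDD, where the groups overlapped, and -1.04 on average (limma adjusted p = 0.0348). The interaction was not called for Lpin1 (limma adjusted p = 0.17) or Cldn1 (0.0973).

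Of 455 measured genes on 40 lists of liver pathways and cell type markers, 6 were called (1.32%, against 0.491% of all genes): Tiparp, Pmm1, Lpin1, Gadd45b, Cdkn1b and Ctrb1, a pancreatic chymotrypsinogen gene that rose by 0.52. The lists were drawn up with earlier results of these arrays known, so this share gives no support of its own. Over all genes an unadjusted p under 0.05 came with a higher level at 8.93% and a lower level at 10.4%. The median difference was 0.01 and 53.8% of genes were above 0, so the lists below are read beside these.

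The 14 measured AhR targets included 1 called higher and 1 called lower gene (Pmm1 and Tiparp). The canonical targets were higher on average without passing the test. Cyp1a1, the main AhR-induced monooxygenase, averaged 1.05 ± 0.22 (SE; limma adjusted p = 0.0687), all of it under corn oil (2.02, against 0.07 under TCDD, where both genotypes read above 13). Cyp1b1 averaged 1.5 (limma adjusted p = 0.077), Ahrr, the AhR repressor gene, 1.11 (0.0556) and Nqo1, a quinone reductase gene, 0.81 (0.068), all mainly under TCDD. Ahrr read 5.88 to 5.95 against 6.00 to 6.03 under corn oil and 6.26 to 6.57 against 7.63 to 9.01 under TCDD, so that its arrays were apart in both. Cyp1a2 differed by 0.15 (limma adjusted p = 0.484). The list had 7 higher and 2 lower genes at an unadjusted p under 0.05 and a median of 0.25, which ran from 0.13 with the clock index as a covariate to 0.34 over all alternatives.

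The interferon-stimulated list had a median of 0.47, with 12 of 13 genes above 0. At an unadjusted p under 0.05 there were 7 higher and 0 lower, and 0 were called by limma. The mean level of the list was 8.02 to 8.48 on wild-type and 8.17 to 9.03 on knockout arrays, so the ranges overlap. Between arrays of 1 group its median level had an SD of 0.388. Irf7, a transcription factor of the interferon response, read 8.55 to 9.12 in wild-type and 9.09 to 9.65 in knockout livers over both treatments, apart within each. It averaged 0.55 (limma adjusted p = 0.0828), Oas2, an antiviral oligoadenylate synthetase, 0.53 (0.0899), and the guanylate-binding protein gene Gbp3 0.63 (0.148). Ifi27, described above, was not on the list. The list median ran from 0.30 to 0.57 over all alternatives, and its rank among the lists changed with them: with the clock covariate it was 0.33, below the glucocorticoid list at 0.39.

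Among 15 acute phase genes all differences were above 0, with a median of 0.14 and 0 called. The largest, Saa3, averaged 2.34 (limma adjusted p = 0.125) but read 13.86, 13.76 and 9.91 on the knockout corn oil arrays, against 7.88 to 10.36 on the wild-type corn oil arrays. The high values are those of knockout corn oil replicates 1 and 2, the arrays farthest out on the first component, and the list median without them was 0.07. Of 18 genes of endoplasmic reticulum and integrated stress 15 were above 0 (8 higher at an unadjusted p under 0.05, 0 lower, 0 called). Their median was 0.46 under corn oil and 0.01 under TCDD, and the average of 0.19 went to 0.08 without these 2 arrays. The glucocorticoid-responsive list, with Gadd45b as its called gene, went from 0.44 to 0.18. With all arrays its median was -0.04 under corn oil and -0.01 under TCDD, and 7 of its 12 genes had an average above 0. The 0.44 is therefore no shift of the list median within either treatment.

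Lists of fuel metabolism had no called gene apart from Lpin1, and the size or sign of several medians rested in part on knockout corn oil replicates 1 and 2. Without these arrays the bile acid median went from -0.16 to -0.06, the NAD and tryptophan median from -0.10 to -0.06, and fatty acid synthesis from -0.04 to 0.10. Bile acid genes included 3 that were lower at an unadjusted p under 0.05, among them Cyp8b1, the sterol 12-alpha-hydroxylase gene (-0.45), while Cyp7a1, the rate-limiting enzyme of bile acid synthesis, had a wide error (-1.56 ± 0.91, SE; limma adjusted p = 0.429). Among 9 glycogen genes Ppp1r3c, a glycogen-targeting phosphatase subunit, read lower under corn oil (-2.12) and not under TCDD (0.18), and averaged -0.97 (limma adjusted p = 0.086). NAD and tryptophan genes, which supply and use the substrate of Tiparp, had 4 lower and 1 higher at an unadjusted p under 0.05. The other 16 PARP family and ADP-ribose genes had a median of 0.04, and 0 were called. Fatty acid oxidation genes (median -0.12) and cholesterol synthesis genes (0.10) had 0 at an unadjusted p under 0.05.

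**Figure D4:**
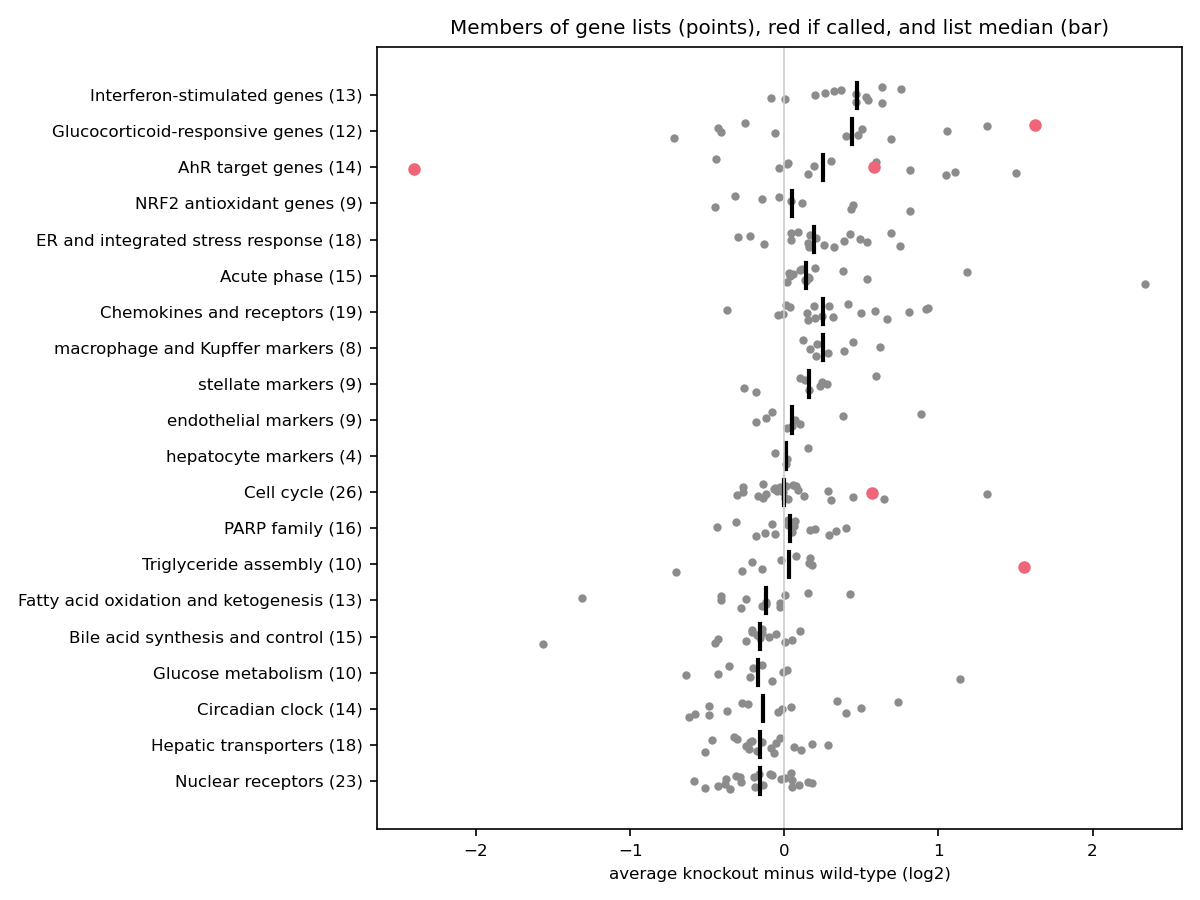
Points show the average knockout minus wild-type log2 difference of each measured member of selected gene lists (number measured in brackets), red where called, and the bar shows the list median. Points are spread vertically for legibility. The interferon-stimulated list has a median of 0.47 and no red point.

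How far the calls rest on single arrays differs between genes. Leaving out each array in turn gave 27 to 1006 calls, and the largest number came without knockout corn oil replicate 3. Of the 96 probe sets, 20 were called in all 12 of these fits, among them Mme, Tiparp, Asic5, Aadac, Ecel1, Gadd45b, both St8sia1 probe sets, Pmm1, Actn1, Maff, Mcam, Dpt and Pip4k2b. Without knockout corn oil replicates 1 and 2 together, which leaves 1 array in that group, 3 probe sets were called and Tiparp was the only one of the 96. The differences themselves stayed close: Mme -3.26 (limma adjusted p = 0.0713), Asic5 1.99 (0.129), Aadac -0.61 (0.129), Gadd45b 1.45 (0.061) and Ecel1 1.79 (0.129). Sdr9c7 went from -1.34 to -0.89 (0.124). A model with genotype and treatment but no interaction called 30 of the 96, and all 30 met the condition on sides. That model counts unequal differences as residual spread and so favours genes whose differences are alike. The 30 therefore give no further support.

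**Figure D5:**
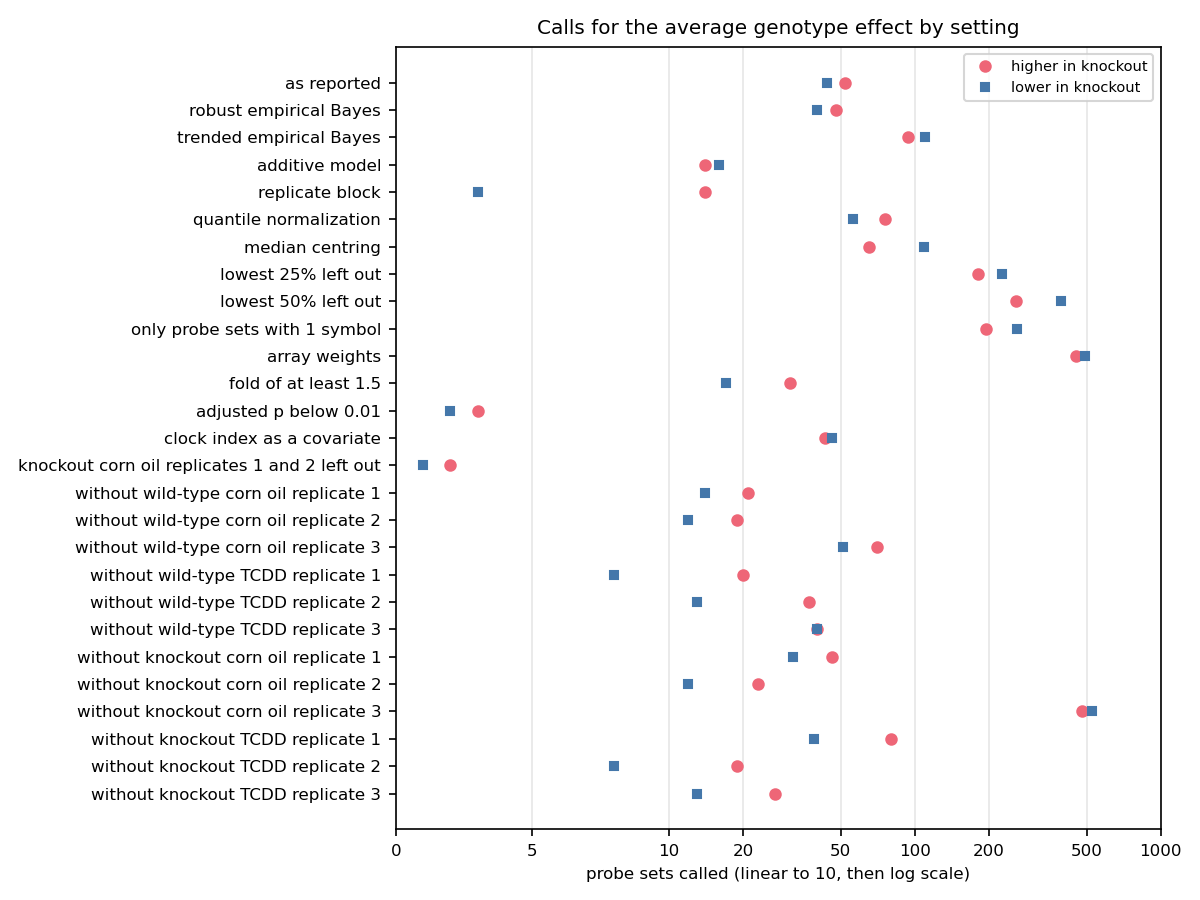
The number of probe sets called higher (circles) and lower (squares) in the knockout is plotted for the reported analysis and each alternative, on an axis that is linear to 10 and logarithmic above. The reported 52 and 44 become 2 and 1 when knockout corn oil replicates 1 and 2 are left out.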

How the data were processed

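Liver RNA of 12 mice was measured on Affymetrix GeneChip Mouse Exon 1.0 ST arrays. The authors deposited log2 values, summarised by RMA, using Affymetrix Expression Console and the build mm9, per the submitters' processing notes, which give no versions. The values were used unchanged. A platform table gave 1 symbol to 14996 of 23332 probe sets, several to 1019 and none to 7317. A gene is represented by its probe set of highest mean. Gene order and promoter windows come from RefSeq for GRCm38.p6, a different build, and no mm9 coordinates are printed. A group-means model was fitted in R 4.3.3 by limma 3.58.1 with default empirical Bayes moderation and 8 residual degrees of freedom. P-values of each contrast received Benjamini-Hochberg adjustment across the whole table. An adjusted p below 0.05 was a call. With 3 arrays per group, p-values measure the spread between these mice.

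Named genes are Tiparp, called probe sets with 1 symbol holding the 10 largest rises and the 10 largest falls, where arrays were apart the same way under both treatments, up to 3 called genes from each list with 2 or more calls, the 5 called genes with the most unequal differences, and called neighbours of Tiparp. The comparison, the lists and this rule were chosen with earlier results of these data known. The fit was tested on simulated data. Alternatives were other moderation, an additive model, other scaling, filters on low values, array weights, stricter thresholds, a clock index as a covariate, the replicate number as a block and leaving out arrays. The labels state no scan dates.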

Additional observations from a re-analysis of the deposited data

Results flagged for a closer look

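At 12 of the 96 probe sets called for the average effect, the knockout minus wild-type difference itself differed between TCDD and corn oil by limma's interaction test (adjusted p below 0.05 over all probe sets). The change from corn oil to TCDD was 3.3 for Ecel1, 2.09 for Gadd45b, 1.9 for Tnfrsf19, 1.8 and 1.86 for the 2 probe sets of St8sia1 and 1.04 for Pmm1. It was 1.3 for Pigx, an enzyme subunit of membrane anchor synthesis, 1.2 for Fgf23, a phosphate-regulating hormone, 1.15 for the splicing factor gene Srsf10 and 0.86 for Ctrb1. For each of these the TCDD difference was the larger. Arrays were also apart under corn oil for Gadd45b (0.58) and, by smaller differences, for Ecel1 (0.16) and the more abundant probe set of St8sia1 (0.15). Slc35a4, a nucleotide sugar transporter family member, went the other way (-1.11), with 1.06 under corn oil and -0.05 under TCDD. A probe set shared by Selenbp2 and Selenbp1, whose signal cannot be assigned to either, changed by 2.43, from -2.34 under corn oil to 0.09 under TCDD.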

How the results depend on the processing

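The number of calls for the average effect (96, of which 69 met the condition on sides) depended strongly on the analysis, while no named gene changed direction in any alternative. The calls, followed by those that met the condition, came to 204 and 141 with trended moderation, 30 and 30 in the additive model, and 174 and 134 with median centring. Leaving out the lowest 25% of probe sets gave 408 and 253, the lowest 50% 652 and 343, and testing only probe sets with 1 symbol 455 and 263. Array weights gave 943 and 406, a minimum fold of 1.5 left 48 and 33, and the stricter adjusted p of 0.01 left 5 and 3. Without knockout corn oil replicates 1 and 2 there were 3 and 3. Quantile normalization gave 132 calls, robust moderation 88 and the clock covariate 89, of which 66 were among the 96. The 3 called neighbours of Tiparp became 7 under either filter on low values or with 1 symbol only, 14 with array weights, 1 at an adjusted p below 0.01 and 0 without the 2 arrays. Leaving out 1 array gave 27 to 1006 calls, 17 to 523 that met the condition and 3 to 13 neighbours. The cause was not tested, beyond the smaller numbers of tests or arrays some alternatives have by construction.

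With the replicate block 17 probe sets were called, all among the 96, and 12 met the condition. The replicate numbers do not pair the samples: deviations of same-numbered arrays correlated at -0.208 to 0.114, and 2 of 12 arrays correlated best with their own number. Of the 22 named genes 9 kept their call with the block, 6 in the additive model, 4 at an adjusted p below 0.01, 1 without the 2 arrays and 9 to 22 when 1 array was left out. Median centring and quantile normalization moved the median of all probe sets from 0.012 to -0.014 and -0.001. With 3 arrays per group, differences of lists and of Cyp1 genes that missed the threshold are not shown to be absent.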
